A study of Mus musculus with 6 samples.

Results

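The genes that build and carry the L-selectin ligand were examined in kidney endothelial cells with and without Rbpj, the DNA-binding effector of canonical Notch signaling. The set holds 10 of the 55401 genes in the deposited count table, taken by symbol: Chst2, Chst4, Fut4, Fut7, B3gnt3, Gcnt1, St3gal4, St3gal6, Glycam1 and Madcam1. All 10 were listed in the table. The rule itself used gene names and no measured value, although the set was chosen with earlier results of these data known. The enzymes Chst2, B3gnt3, St3gal4, St3gal6, Gcnt1 and Fut4 were read in every library of both groups. Chst4, Fut7, Glycam1 and Madcam1, best known from high endothelial venules, had at most 6 counts in any library.

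High endothelial venules, the vessels through which lymphocytes enter lymphoid tissue, display glycoproteins that L-selectin on lymphocytes binds. Their glycans are built stepwise in the Golgi: core 2 branching and extension enzymes lay down an O-glycan chain, a GlcNAc-6-O-sulfotransferase adds sulfate, and α2,3-sialyltransferases and α1,3-fucosyltransferases complete the capping group known as 6-sulfo sialyl Lewis x. Mucin-like proteins such as GlyCAM-1 present these chains, and their sulfated form is detected by antibodies as peripheral node addressin, PNAd.

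Bulk RNA-seq was available from CD31+CD45- cells sorted from kidneys of male mice, with 3 libraries labelled CTRL and 3 labelled RbpjΔEC, described by the study as biological replicates. All mice carried Rbpjf/f on a B6 background and all received tamoxifen, 5 injections of 1.5 mg at 8 weeks of age. The CTRL mice were littermates of genotype Cre -/-, and the RbpjΔEC mice were Cre +/-, with a tamoxifen-inducible Cre (CreERT2) under the endothelial Cdh5 promoter, so that recombination was directed to the endothelium of all organs and not to the kidney alone. Kidneys were harvested 12 weeks after induction, and the labels give an age of 21 weeks. The comparison asked whether loss of endothelial Rbpj was accompanied by a different level of the genes of L-selectin ligand synthesis.

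Total counts ranged from 39649171 to 47726850 per library. CTRL 1 stood apart, with a count in 33764 genes, against 25629 to 26785 in the other libraries. Rbpj itself was at 28.1, 29.7 and 29.8 CPM (read counts scaled to library size) in CTRL and at 28.8, 26.1 and 29.6 CPM in RbpjΔEC. The groups overlapped, with a log2 fold change (RbpjΔEC against CTRL) of -0.05 and an adjusted p of 0.793 (edgeR quasi-likelihood test, Benjamini-Hochberg over the 18438 genes tested). That value sums over the whole gene and does not resolve the exons flanked by loxP sites, so it was no check of recombination, and the group names are those of the labels. Hey1, a Notch target gene named after its values were seen, had a log2 fold change of -0.76 without overlap between the groups, and an adjusted p of 0.0722 in the same edgeR test.

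The sorted cells carried the endothelial markers at high level, with a summed level of 18796 to 20285 CPM over 10 markers in CTRL and 17123 to 17640 CPM in RbpjΔEC, led by Flt1 and Kdr. None of these 10 markers passed the adjusted threshold of 0.05 in edgeR, whereas DESeq2 passed Kdr and Flt1 as lower (log2 fold changes -0.28 and -0.24, adjusted p-values 0.00588 and 0.0212). Leukocyte genes, which the CD45 gate should remove, summed to 4.24 to 14.6 CPM over 6 genes in CTRL, highest in CTRL 1, and to 2.94 to 4.81 CPM in RbpjΔEC.

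Sequences upstream of the members are shown first for the sulfotransferases Chst2 and Chst4 and the fucosyltransferases Fut4 and Fut7, since in each pair one gene was read at a measurable level in every library and the other was nearly silent, as described further on. Each run is the RefSeq stretch from 250 bases before to 50 bases after the annotated start (GRCm38.p6), written 5′ to 3′ on the strand of the gene, with CpG dinucleotides in capitals. Chst2 lies at chr9:95407221-95407520 (minus strand), Chst4 at chr8:110039285-110039584 (minus strand), Fut4 at chr9:14752073-14752372 (minus strand) and Fut7 at chr2:25422992-25423291 (plus strand).
Chst2: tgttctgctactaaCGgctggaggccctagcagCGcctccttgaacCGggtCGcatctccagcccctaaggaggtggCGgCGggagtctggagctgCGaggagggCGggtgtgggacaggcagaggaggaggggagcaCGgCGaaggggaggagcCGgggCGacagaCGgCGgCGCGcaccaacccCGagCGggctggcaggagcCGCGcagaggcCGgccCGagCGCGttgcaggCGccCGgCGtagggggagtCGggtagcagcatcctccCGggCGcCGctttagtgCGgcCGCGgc
Chst4: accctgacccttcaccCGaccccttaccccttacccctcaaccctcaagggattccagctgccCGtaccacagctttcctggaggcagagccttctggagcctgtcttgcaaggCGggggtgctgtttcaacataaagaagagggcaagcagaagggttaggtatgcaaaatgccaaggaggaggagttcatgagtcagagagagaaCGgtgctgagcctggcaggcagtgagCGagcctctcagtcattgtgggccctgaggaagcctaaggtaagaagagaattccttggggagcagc
Fut4: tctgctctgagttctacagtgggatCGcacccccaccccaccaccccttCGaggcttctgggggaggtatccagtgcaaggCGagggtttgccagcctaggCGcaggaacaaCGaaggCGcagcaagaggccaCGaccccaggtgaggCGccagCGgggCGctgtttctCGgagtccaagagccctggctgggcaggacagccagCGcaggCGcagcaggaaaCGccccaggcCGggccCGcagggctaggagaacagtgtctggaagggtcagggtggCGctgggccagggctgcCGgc
Fut7: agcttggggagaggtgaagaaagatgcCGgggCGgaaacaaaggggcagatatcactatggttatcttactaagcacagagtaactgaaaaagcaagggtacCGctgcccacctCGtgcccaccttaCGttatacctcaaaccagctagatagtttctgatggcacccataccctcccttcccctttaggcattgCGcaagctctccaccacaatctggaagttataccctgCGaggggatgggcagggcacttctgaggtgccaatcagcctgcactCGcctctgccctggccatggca

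The Chst2 stretch held 34 CpG dinucleotides and that of Chst4 held 5. The Fut4 stretch held 18 and that of Fut7 held 8. All 10 members matched a promoter in the RefSeq table. Across them, the 6 genes that passed the low-count filter held 11 to 34 CpG dinucleotides at a GC content of 58.7% to 74.0%, and the 4 genes under the filter held 0 to 8 at 50.3% to 60%. Glycam1, with none, was the lowest. The median over all 32851 promoters in the table was 7 CpG dinucleotides, with quartiles of 3 and 20. The letters GTGGGAA, a core of Rbpj binding sites, searched on both strands (reverse complement TTCCCAC), were present in 0 of the 10 stretches and in 6.38% of all promoters. These are descriptions of the letters in a 300-base window. For Chst2, Chst4 and Fut4 the RefSeq start lay 548, 406 and 271 bases from the start of the principal transcript in GENCODE M21, and several members have more than 1 start, so the window depends on the annotation.

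Of the 10 members, 6 had enough reads to be tested and 4 did not. None of the 6 tested members passed an adjusted p of 0.05 in edgeR, where 1.13% of all 18438 tested genes did (0.575% higher, 0.559% lower). The DESeq2 and limma voom fits called none either. Before adjustment, Chst2 (higher) and B3gnt3 (lower) had p-values under 0.05, as 17.5% of the tested genes did, 8.88% of them upward and 8.62% downward. The same pair were the members whose groups did not overlap, which held for 23.0% of the tested genes, 11.4% upward and 11.6% downward. The median log2 fold change was -0.04 over the 6 members and 0.01 over all tested genes.

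**Figure D1:**
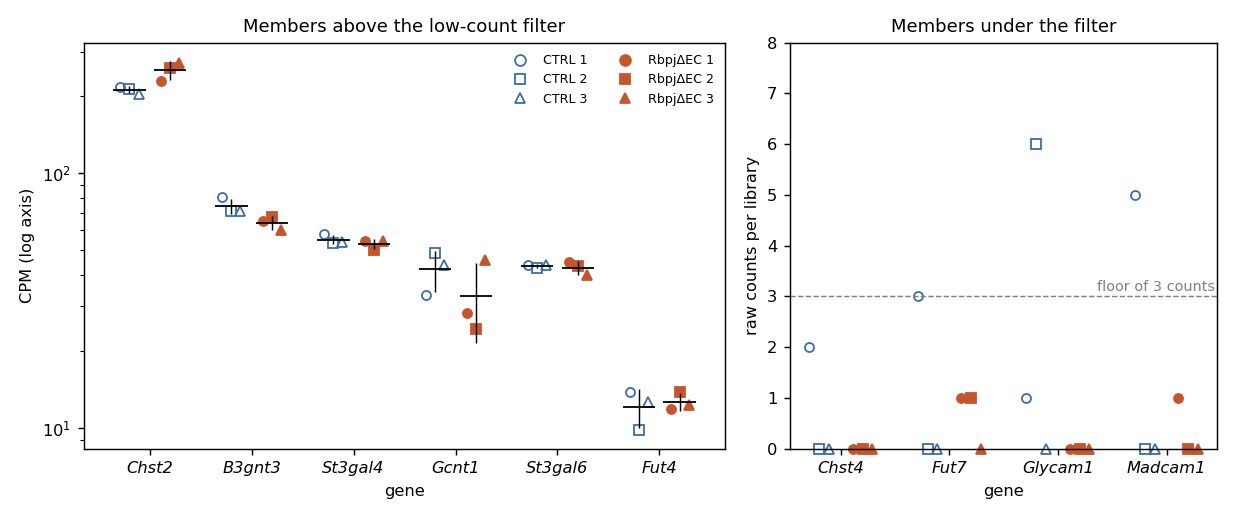
Left, CPM on a log axis for the 6 members above the low-count filter; right, raw counts per library for the 4 members under it, with a dashed line at the floor of 3 counts. Open blue symbols are CTRL and filled orange symbols RbpjΔEC (n = 3 each), horizontal lines are group means and vertical lines SDs. Only for Chst2 and B3gnt3 do the groups separate, and the counts of the 4 low genes stand mostly in CTRL 1 and CTRL 2.

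Chst2, which encodes a GlcNAc-6-O-sulfotransferase that adds the sulfate of the L-selectin ligand, was the most abundant member (ENSMUSG00000033350.7, GRCm38 chr9:95399292-95406722, minus strand). Its levels were 218, 214 and 205 CPM in CTRL and 229, 259 and 272 CPM in RbpjΔEC. Every RbpjΔEC library was above every CTRL library. The mean was 212 ± 6.71 CPM in CTRL and 253 ± 21.7 CPM in RbpjΔEC (SD, n = 3 each), a log2 fold change of 0.26 (SE 0.0760, 95% interval 0.09 to 0.42), equal to 19.4% (6.41% to 33.9%). The adjusted p was 0.118 in edgeR, above the threshold. A two-sided exact permutation test gave p = 0.1, the smallest that 3 against 3 libraries can give. Without the low-count filter the adjusted p of Chst2 was 0.0231, and over the other alternatives it lay between 0.0622 and 0.327. In bulk RNA a different share of cells that express a gene and a different amount of RNA per cell cannot be told apart.

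Chst4, the GlcNAc-6-O-sulfotransferase known from high endothelial venules, was nearly absent from these libraries (ENSMUSG00000035930.9, chr8:110029153-110039740, minus strand). It had 2 counts in CTRL 1 and 0 in each of the other 5 libraries. A level of up to 0.0549 CPM in CTRL and 0.0295 CPM in RbpjΔEC is still allowed by these counts (upper end of the exact 95% Poisson interval, counting error only). A difference under these limits was not detectable at this depth.

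Per kilobase of exon, the only scale on which levels of different genes are compared here, Chst2 stood at 29.0 ± 0.916 CPM in CTRL and 34.6 ± 2.96 CPM in RbpjΔEC. It was at least 2707-fold higher per kilobase than Chst4 in RbpjΔEC, with the 0 counts of Chst4 set to the upper end of their Poisson interval. In CTRL the ratio was 4288 (counting interval 1187 to 35409), which rests on 2 counts of Chst4. Within the 4 GlcNAc-6-O-sulfotransferases Chst2, Chst4, Chst5 and Chst7, Chst2 made up 88.0% ± 0.820 of the summed level per kilobase in CTRL and 90.0% ± 1.44 in RbpjΔEC. Chst7 made up nearly all of the rest, and Chst5 had no count in any library.

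Fut7, the α1,3-fucosyltransferase that leads selectin ligand synthesis in leukocytes and high endothelial cells, was at the floor in both groups (ENSMUSG00000036587.13, chr2:25423267-25426374, plus strand). It had 3, 0 and 0 counts in CTRL and 1, 1 and 0 in RbpjΔEC. The counts allow up to 0.0666 CPM in CTRL and 0.0578 CPM in RbpjΔEC.

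Fut4, the other α1,3-fucosyltransferase known to contribute to selectin ligands, was read in every library at a low level (ENSMUSG00000049307.6, chr9:14748320-14752393, minus strand). Its levels were 13.9, 9.79 and 12.7 CPM in CTRL and 11.9, 13.8 and 12.3 CPM in RbpjΔEC. All 3 RbpjΔEC values lay within the range of the CTRL values. The log2 fold change was 0.06 (SE 0.141, 95% interval -0.24 to 0.37, adjusted p = 0.851 in edgeR), so changes within that interval cannot be told from none. Its sign turned in 2 of 13 alternatives, at -0.08 without CTRL 2 and -0.00143 without RbpjΔEC 2. Per kilobase, Fut4 exceeded Fut7 by a ratio of 300.2 in CTRL (counting interval 103 to 1456, on 3 counts of Fut7) and 464 in RbpjΔEC (128 to 3833, on 2 counts).

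Fut9, a further α1,3-fucosyltransferase, was named for its spread after its values were seen. It had 84, 119 and 175 counts in CTRL and 106, 139 and 549 in RbpjΔEC, so that 1 library, RbpjΔEC 3, was far above the rest. Fut4 accordingly made up 91.2% to 94.9% of the summed level per kilobase of Fut4, Fut7 and Fut9 in 5 libraries and 75.4% in RbpjΔEC 3. Of 8 tubule markers, Lrp2 and Slc34a1, known from the proximal tubule and also named after their values were seen, were highest in the same library. The other 6 (Umod, Slc12a1, Slc12a3, Aqp2, Cdh16 and Epcam) were highest in CTRL 1 and had log2 fold changes under 0. None of these 6 passed in the main edgeR fit, and Aqp2 and Epcam passed in DESeq2 (adjusted p-values 0.0287 and 0.0486). Among the edgeR alternatives, Umod passed with the replicate block (0.00716), and Cdh16 (0.0332) and Epcam (0.0403) without RbpjΔEC 3. Epcam also passed without the low-count filter (0.00655). Lrp2 had 549, 1103 and 1705 counts in CTRL and 1308, 1216 and 5178 in RbpjΔEC. Slc34a1 had 250, 803 and 927 counts in CTRL and 766, 818 and 2947 in RbpjΔEC. The summed level of all 8 tubule markers was 286 to 439 CPM in CTRL, highest in CTRL 1, and 154, 102 and 377 CPM in RbpjΔEC. The part of tubule RNA in the Fut9 value was not tested.

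**Figure D2:**
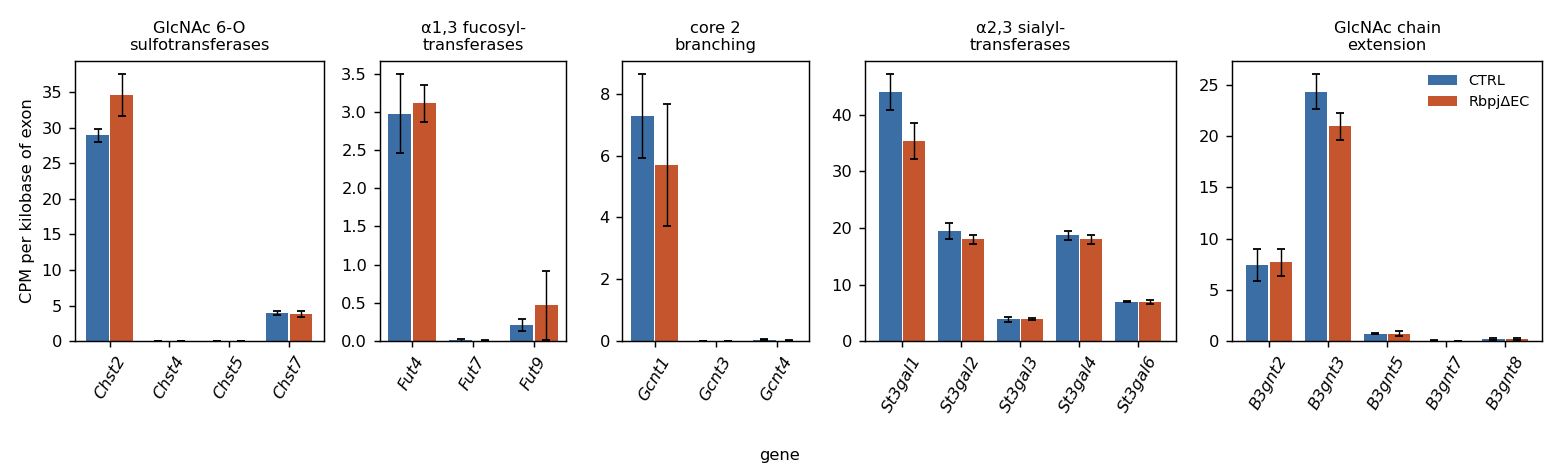
Mean level per kilobase of exon (CPM per kilobase, linear axes from 0, own scale in each panel) of the members and their closest paralogs, by enzyme family; bars are group means, blue for CTRL and orange for RbpjΔEC, and whiskers are SDs (n = 3). Chst2, Fut4, Gcnt1 and B3gnt3 lead their families in both groups, while St3gal4 and St3gal6 stand under St3gal1.

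Gcnt1, the core 2 branching enzyme that starts the O-glycan arm carrying the ligand, varied most among the tested members (ENSMUSG00000038843.18, chr19:17326141-17372844, minus strand). Its levels were 33.4, 48.8 and 43.5 CPM in CTRL and 28.2, 24.6 and 45.8 CPM in RbpjΔEC. RbpjΔEC 1 and 2 lay under all CTRL libraries, whereas RbpjΔEC 3 lay within their range. The mean was 41.9 ± 7.83 CPM in CTRL and 32.9 ± 11.4 CPM in RbpjΔEC, a log2 fold change of -0.35 (SE 0.275, 95% interval -1.04 to 0.33, adjusted p = 0.568 in edgeR). The value rested on single libraries. Without RbpjΔEC 3, the library with the highest Lrp2 and Slc34a1, the log2 fold change was -0.67 with an adjusted p of 0.0420 in edgeR, which passes the threshold. Without each of the other libraries in turn it lay between -0.49 (without CTRL 1) and -0.18 (without RbpjΔEC 2), with adjusted p-values of 0.585 to 0.815. The part of tubule RNA in the Gcnt1 level of RbpjΔEC 3 was not tested.

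Gcnt1 was nearly alone in its family. It made up 99.2% ± 0.613 of the summed level per kilobase of the core 2 enzymes Gcnt1, Gcnt3 and Gcnt4 in CTRL and 99.7% ± 0.391 in RbpjΔEC.

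B3gnt3, which extends core 1 O-glycans with GlcNAc and so provides a further site for the sulfated cap, was second to Chst2 per kilobase of exon, a rank that St3gal4 takes with the length of the longest transcript (ENSMUSG00000031803.8, chr8:71690756-71701789, minus strand). Its levels were 80.3, 71.4 and 71.2 CPM in CTRL and 65.2, 67.2 and 59.6 CPM in RbpjΔEC. Every RbpjΔEC library was under every CTRL library, with the narrowest gap between CTRL 3 and RbpjΔEC 2. The mean was 74.3 ± 5.24 CPM in CTRL and 64.0 ± 3.93 CPM in RbpjΔEC. The log2 fold change was -0.22 (SE 0.0793, 95% interval -0.39 to -0.04, adjusted p = 0.188 in edgeR), short of the threshold. The exact permutation p was 0.1, again the smallest possible. The sign was the same in 13 of 13 alternatives, with values of -0.25 to -0.16 and adjusted p-values from 0.125 to 0.497. Among 5 extension enzymes, B3gnt3 made up 74.5% ± 2.16 of the summed level per kilobase in CTRL and 71.0% ± 2.24 in RbpjΔEC, followed by B3gnt2.

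St3gal4, one of the α2,3-sialyltransferases that cap selectin ligands, overlapped between the groups (ENSMUSG00000032038.7, chr9:35046576-35119268, minus strand). Its levels were 57.5, 53.4 and 53.6 CPM in CTRL and 54.0, 49.9 and 54.1 CPM in RbpjΔEC. The log2 fold change was -0.06 (SE 0.0745, 95% interval -0.22 to 0.10, adjusted p = 0.731 in edgeR).

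St3gal6, its partner in sialylation of selectin ligands, varied little across libraries (ENSMUSG00000022747.17, chr16:58468125-58524243, minus strand). Its levels were 43.5, 42.3 and 43.7 CPM in CTRL and 44.7, 43.2 and 39.8 CPM in RbpjΔEC. The groups overlapped, and the log2 fold change was -0.02 (SE 0.0774, 95% interval -0.19 to 0.15, adjusted p = 0.915 in edgeR). On the linear scale the intervals run from -14.1% to 7.54% for St3gal4 and from -12.4% to 10.8% for St3gal6. Among 5 α2,3-sialyltransferases St3gal1 stood highest per kilobase, at 44.0 CPM in CTRL and 35.4 CPM in RbpjΔEC, against 18.8 and 18.03 CPM for St3gal4 and 6.99 and 6.89 CPM for St3gal6. St3gal6 shares 1603 exonic bases with Dcbld2 on the opposite strand and St3gal4 shares 412 with 4930581F22Rik. The strand setting of the counting is not given in the sources used here, so reads over these bases are uncertain.

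**Figure D3:**
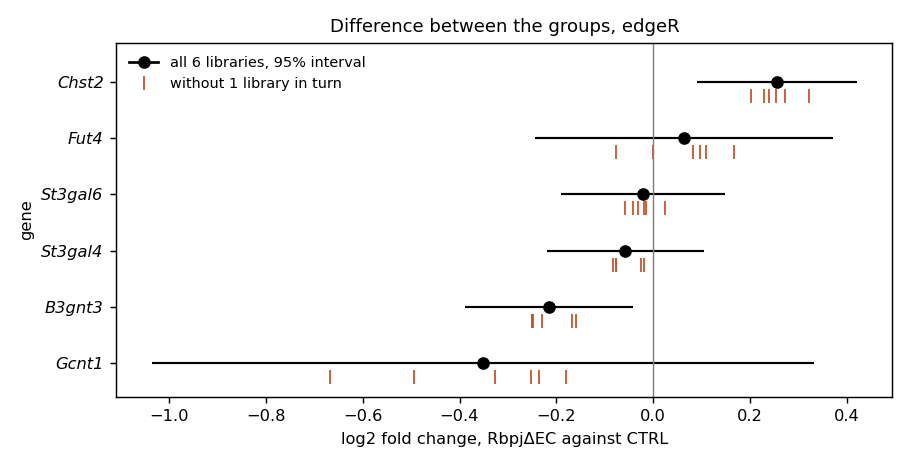
Log2 fold change of RbpjΔEC against CTRL for the 6 tested members; black points are the edgeR estimates from all 6 libraries with 95% intervals, and orange ticks the estimates without 1 library in turn. The intervals of Chst2 and B3gnt3 stay on one side of 0, Gcnt1 has the widest interval, and the ticks of Fut4 and St3gal6 fall on both sides of 0.

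The order of the members per kilobase was nearly the same in both groups. In CTRL it ran from Chst2 (29.0 CPM per kilobase) over B3gnt3 (24.3), St3gal4 (18.8), Gcnt1 (7.27) and St3gal6 (6.99) to Fut4 (2.98). In RbpjΔEC it ran from Chst2 (34.6) over B3gnt3 (20.9), St3gal4 (18.03), St3gal6 (6.89) and Gcnt1 (5.71) to Fut4 (3.11). Gcnt1 and St3gal6 did not differ beyond their spread, with 4.26 to 8.47 CPM per kilobase for Gcnt1 and 6.44 to 7.24 for St3gal6 over the 6 libraries. B3gnt3 (19.5 to 26.3) and St3gal4 (17.1 to 19.7) met at their edges, whereas the ranges of Chst2 (27.95 to 37.1) and Fut4 (2.40 to 3.40) met no other member. With the length of the longest transcript in place of all exonic bases, the mean over all libraries was 25.7 rather than 18.4 CPM per kilobase for St3gal4, above 22.6 for B3gnt3.

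The protein carriers Glycam1 and Madcam1 were at the floor. Glycam1, the secreted mucin-like carrier of lymph node high endothelial venules, had 1, 6 and 0 counts in CTRL and 0 in all 3 RbpjΔEC libraries (ENSMUSG00000022491.5, chr15:103562759-103565081, minus strand). Madcam1, the mucosal addressin that binds L-selectin through its mucin domain and integrin α4β7 through its immunoglobulin domains, had 5, 0 and 0 counts in CTRL and 1, 0 and 0 in RbpjΔEC (ENSMUSG00000020310.9, chr10:79664559-79668537, plus strand). No count of either gene was found in CTRL 3, RbpjΔEC 2 or RbpjΔEC 3. The upper ends of the 95% Poisson intervals were 0.109 CPM in CTRL and 0.0295 CPM in RbpjΔEC for Glycam1, and 0.0886 and 0.0446 CPM for Madcam1.

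Chst4, Fut7, Glycam1 and Madcam1, the members best known from high endothelial venules, had 20 counts in all 6 libraries together. Of these, 11 were in CTRL 1, 6 in CTRL 2, 0 in CTRL 3, and 2, 1 and 0 in RbpjΔEC 1, 2 and 3. CTRL 1 was the sole library with a count of each of the 4 genes, and was also the library with the most genes detected and the highest leukocyte markers. In a fit without the low-count filter their adjusted p-values were 0.526 to 0.931 (edgeR). A single library reached 3 counts at 0.0629 to 0.0757 CPM, so a difference under this level was not detectable at this depth. The part of the differences between libraries in these counts was not tested.

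Beyond these low members, other genes of high endothelial cells were counted from a list of 15, of which 13 were tested and 0 passed in edgeR, with 1 higher (Nfkb2) and 1 lower (Ccl21a) at p under 0.05 before adjustment (8.88% and 8.62% of all tested genes). Ccl21a, a lymphocyte-attracting chemokine, was at 2.54, 1.54 and 3.08 CPM in CTRL and 0.780, 1.17 and 0.623 CPM in RbpjΔEC, with a log2 fold change of -1.47 and an adjusted p of 0.0703 in edgeR. Near-identical copies of this gene share its reads, so its value is uncertain. Nfkb2, the noncanonical NF-κB subunit through which lymphotoxin signals, was at 86.5, 82.5 and 63.4 CPM in CTRL and 117, 126 and 90.0 CPM in RbpjΔEC (log2 fold change 0.52, adjusted p = 0.148 in edgeR). Its partner Relb had a log2 fold change of 0.37 (adjusted p = 0.377 in edgeR) with overlapping groups. DESeq2 passed Nfkb2 and Ccl21a, with adjusted p-values of 0.0109 and 0.00616. In edgeR, Nfkb2 passed without RbpjΔEC 3 (0.0185) and Ccl21a without CTRL 2 (0.0287).

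Of the 7 other carriers of L-selectin ligands, Podxl, Emcn, Cd300lg and Cd34 were abundant, in contrast to Glycam1 and Madcam1, whereas Spn, Selplg and Podxl2 were low. Podxl, the sialomucin podocalyxin, was at 3372, 2982 and 3333 CPM in CTRL and 2554, 2678 and 2397 CPM in RbpjΔEC. Emcn, endomucin, was at 1559, 1482 and 1697 CPM in CTRL and 1303, 1367 and 1252 CPM in RbpjΔEC. Cd300lg, the endothelial receptor nepmucin, was at 734, 693 and 845 CPM in CTRL and 564, 585 and 610.3 CPM in RbpjΔEC. For each of these 3 genes every RbpjΔEC library was under every CTRL library, as held for 11.6% of all tested genes.

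None of the 6 tested carriers passed the adjusted threshold in edgeR, and 4 were lower at p under 0.05 before adjustment (8.62% of all tested genes). The log2 fold changes were -0.35 for Podxl (SE 0.0823, adjusted p = 0.0678), -0.27 for Emcn (SE 0.0781, adjusted p = 0.106) and -0.37 for Cd300lg (SE 0.0838, adjusted p = 0.0600). In DESeq2 they passed, with adjusted p-values of 0.00208 for Podxl, 0.0208 for Emcn and 0.00240 for Cd300lg. Without CTRL 2, Podxl (0.0277) and Cd300lg (0.0227) also passed in edgeR, and without RbpjΔEC 3 Cd300lg did (0.0413). Over 13 alternatives the adjusted p ranged from 1.97e-04 to 0.231 for Podxl and from 1.14e-04 to 0.236 for Cd300lg. Cd34 was at 616 ± 47.7 CPM in CTRL and 550.0 ± 45.8 CPM in RbpjΔEC, with overlapping groups (log2 fold change -0.16, adjusted p = 0.347 in edgeR). Spn, the leukocyte sialomucin CD43, was at 4.06, 1.25 and 1.63 CPM in CTRL and 0.446, 0.524 and 1.17 CPM in RbpjΔEC (log2 fold change -1.69, adjusted p = 0.138 in edgeR), and passed in DESeq2 (adjusted p = 0.0207) and in edgeR without RbpjΔEC 3 (0.0495). The pan-leukocyte gene Ptprc had 157, 55 and 114 counts in CTRL and 24, 31 and 64 in RbpjΔEC, with an adjusted p of 0.188 in edgeR and 0.0480 in DESeq2, and the part of leukocyte RNA in the Spn level was not tested. Selplg, the P-selectin ligand of leukocytes, was under 1 CPM in every library (log2 fold change -0.30, adjusted p = 0.830 in edgeR), and Podxl2 had 9, 4 and 2 counts in CTRL and 7, 8 and 5 in RbpjΔEC and was not tested. The 4 podocyte markers summed to 185 to 200.04 CPM in CTRL and 179 to 217 CPM in RbpjΔEC, and overlapped, whereas the 10 endothelial markers were lower in sum in every RbpjΔEC library, mostly through Kdr and Flt1, with 6 of the 10 log2 fold changes under 0. The part of the endothelial RNA content in the carrier levels was not tested.

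**Figure D4:**
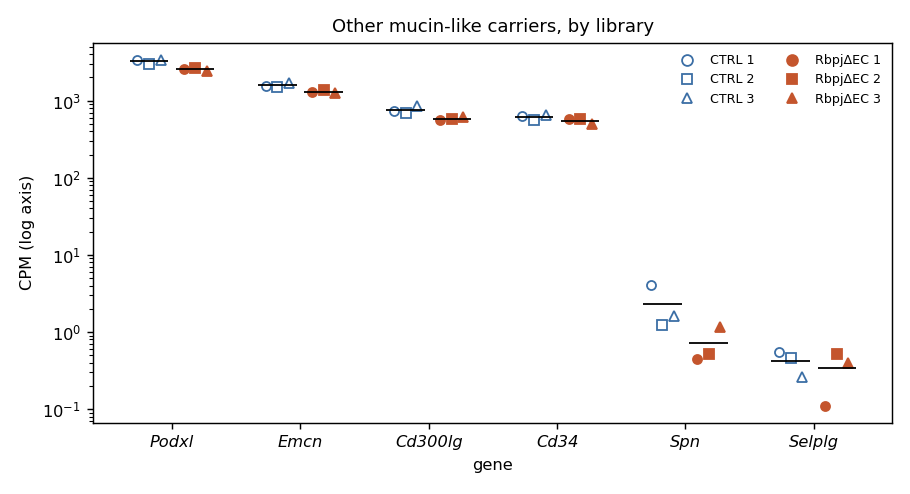
CPM on a log axis of the 6 tested mucin-like carriers outside the member set, by library; open blue symbols are CTRL, filled orange symbols RbpjΔEC (n = 3 each) and horizontal lines group means. Podxl, Emcn, Cd300lg and Spn separate without overlap, lower in RbpjΔEC, and Cd34 and Selplg overlap.

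The supply of sugar and sulfate donors and the related transferases were counted over 4 further lists. In none of them did a gene pass the adjusted threshold in edgeR, while DESeq2 passed Fut8 (adjusted p = 0.0335), St3gal1 (0.0199) and B4galt4 (0.0148) as lower and Slc35a2 (0.0116) as higher. In edgeR without RbpjΔEC 3, St3gal5 (log2 fold change -0.51, adjusted p = 0.0270), St3gal1 (0.0385) and Gcnt2 (0.0487) passed as lower. Without CTRL 2, B4galt4 (0.0499) passed as lower and Slc35a2 (0.0328) as higher. For the counts at p under 0.05 before adjustment in each list, the shares of all tested genes are 8.88% higher and 8.62% lower. Of 8 tested genes of sulfate supply and sulfotransferases, 0 were higher and 1 lower at p under 0.05 before adjustment; the list median was 0.00 on the log2 scale. The lower gene was Papss1, which makes the sulfate donor PAPS, at 61.7, 59.8 and 65.2 CPM in CTRL and 57.2, 52.6 and 45.7 CPM in RbpjΔEC (log2 fold change -0.26, adjusted p = 0.155 in edgeR). The next genes by p were Slc35b3, a Golgi PAPS transporter (0.17, adjusted p = 0.394), and Chst3, a chondroitin sulfotransferase (-0.46, adjusted p = 0.410), both with overlapping groups.

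Of 10 tested genes of fucose supply and fucosyltransferases, 1 was higher and 2 lower at p under 0.05 before adjustment, with a median of -0.06. Fut8, which adds core fucose to N-glycans, was at 45.3, 47.0 and 50.9 CPM in CTRL and 39.6, 40.1 and 35.3 CPM in RbpjΔEC, without overlap (log2 fold change -0.32, adjusted p = 0.0894 in edgeR). Fut11 (-0.18, adjusted p = 0.257) and Fut2 (1.37, adjusted p = 0.249, all libraries under 1 CPM) followed.

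Of 13 tested genes of sialic acid supply and sialyltransferases, 0 were higher and 3 lower at p under 0.05 before adjustment, with a median of -0.18. St3gal1, which sialylates core 1 O-glycans, was at 285, 294 and 326 CPM in CTRL and 244, 219 and 263 CPM in RbpjΔEC, without overlap (log2 fold change -0.32, adjusted p = 0.0889 in edgeR). St6gal1, which adds α2,6-linked sialic acid to N-glycans, had a log2 fold change of -0.36 (adjusted p = 0.230). Gne, which starts sialic acid synthesis, had one of -0.19 (adjusted p = 0.237), and both had overlapping groups.

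Of 22 tested genes of O-glycan start, branching and extension, 2 were higher and 3 lower at p under 0.05 before adjustment, with a median of -0.09. Slc35a2, the Golgi UDP-galactose transporter, was at 13.0, 14.6 and 12.6 CPM in CTRL and 18.2, 19.1 and 17.7 CPM in RbpjΔEC, without overlap (log2 fold change 0.45, adjusted p = 0.0615 in edgeR). Without CTRL 2 its adjusted p was 0.0328 in edgeR, and over 13 alternatives it ranged from 0.0116 to 0.215. B4galt4, a galactosyltransferase, was at 66.8, 68.1 and 73.8 CPM in CTRL and 57.0, 54.8 and 57.7 CPM in RbpjΔEC, also without overlap (log2 fold change -0.30, adjusted p = 0.0684). Gcnt2, which makes branched I antigen, had a log2 fold change of -0.25 (adjusted p = 0.165).

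Over the 5 lists of glycan synthesis and carriers, 41 of 59 tested genes had a log2 fold change under 0, against 48.9% of all tested genes, and the median was -0.12 against 0.01. Genes of one pathway are not independent observations, and with DESeq2 10 genes of the 6 lists passed the adjusted threshold, 2 higher and 8 lower, where DESeq2 called 5.12% of all tested genes, 2.35% higher and 2.77% lower.

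**Figure D5:**
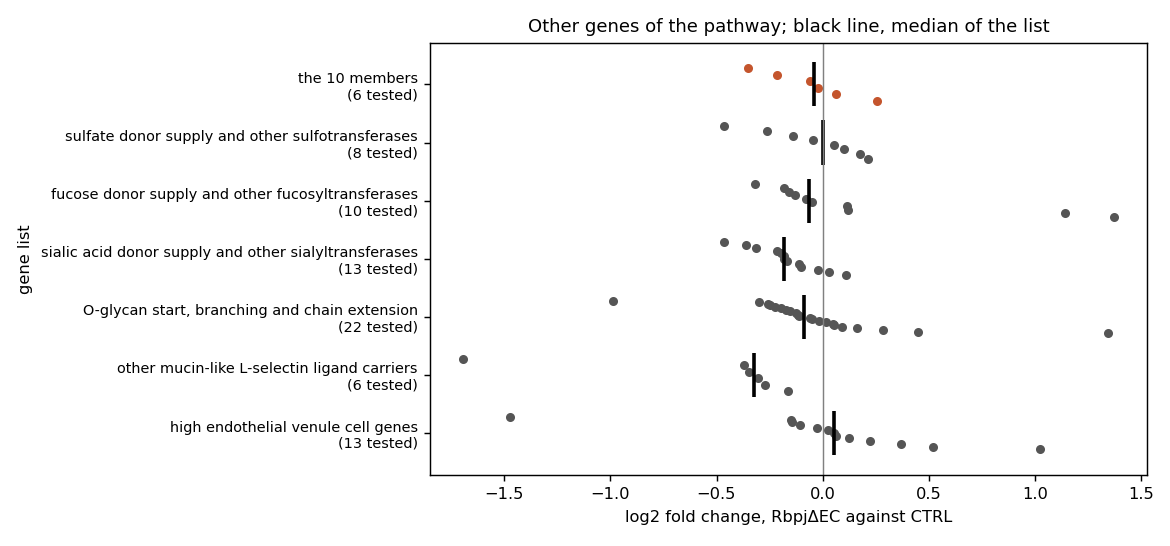
Log2 fold change (RbpjΔEC against CTRL, edgeR) of each tested gene, orange for the members and grey for the 6 other lists, with the median of each list as a black line. The members lie on both sides of 0 with a median of -0.04, and the carriers all lie under 0 with a median of -0.32.

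Several markers of other cell types moved with the groups in the libraries on which the member values rest. The 6 mural markers summed to 73.4 to 91.6 CPM in CTRL and 30.1 to 47.1 CPM in RbpjΔEC, and 3 of them (Acta2, Myh11 and Rgs5) passed as lower in edgeR. DESeq2 passed these and also Pdgfrb (adjusted p = 1.97e-04) and Cspg4 (0.00146) as lower. The edgeR calls depended on single libraries. Without CTRL 3 only Rgs5 passed (0.0415), without RbpjΔEC 2 only Acta2 (0.0498) and Myh11 (0.0294), and without CTRL 1 or RbpjΔEC 1 no mural marker. Macrophage markers (8 genes) summed to 14.2 to 15.5 CPM in CTRL and 23.8 to 27.98 CPM in RbpjΔEC, with Cd68 alone passing as higher. Cd68 carried this sum, at a mean of 9.96 CPM in CTRL and 24.03 CPM in RbpjΔEC. The means of the other 7 macrophage markers were lower in RbpjΔEC, led by Csf1r (log2 fold change -1.57, adjusted p = 0.134 in edgeR) and Lyz2 (-1.25, adjusted p = 0.321). Csf1r passed as lower in DESeq2 (adjusted p = 0.0238) and in edgeR without RbpjΔEC 3 (0.0487). Fibroblast markers (4 genes) summed to 2.93 to 4.23 CPM in CTRL and 0.977 to 1.77 CPM in RbpjΔEC, with 1 gene, Pdgfra, passing as lower. The sum of the 5 lymphatic endothelial markers overlapped (618 to 709 CPM in CTRL, 644 to 680.1 CPM in RbpjΔEC) and was mostly Flt4. Beneath it, Lyve1 was lower without overlap (log2 fold change -1.19, adjusted p = 0.162 in edgeR), Prox1 was higher without overlap (0.17, adjusted p = 0.542) and Reln had a log2 fold change of -0.72 (adjusted p = 0.133). Reln passed as lower in DESeq2 (adjusted p = 0.0174) and in edgeR without CTRL 2 (0.0196). Sums of the T cell markers (3.49 to 5.45 and 4.90 to 8.72 CPM) overlapped, as did those of neutrophils (0.828 to 9.14 and 0.773 to 1.81 CPM). The B cell sums (0.802 to 2.81 and 0.312 to 0.673 CPM) were lower in RbpjΔEC. Of these 6 B cell markers only Cd79a was tested (log2 fold change 0.12, adjusted p = 0.930 in edgeR). The rest were under the low-count filter, with lower means in RbpjΔEC. Cr2 had 67 counts in CTRL 1, against 4 and 12 in CTRL 2 and 3, and passed as lower in edgeR without CTRL 2 (0.0446). The T cell sum was mostly Lck (log2 fold change 0.73, adjusted p = 0.177 in edgeR). Of the other T cell markers, Cd2, Cd3g and Trac had at most 8 counts in a library and lower means in RbpjΔEC, and Cd3e and Cd3d had no count in any library. The part of RNA from these other cell types in the levels of Chst2 and B3gnt3 was not tested.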

How the data were processed

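Per the study's methods and the submitters' processing notes, the authors trimmed reads with Trim Galore 0.6.4, aligned them with STAR 2.6.1d to GRCm38.p6 and counted them per gene with featureCounts (Subread 1.6.4). The deposited values are raw counts, whole numbers without normalization. All 6 libraries shared 1 sequencing run. The labels do not say that libraries came from separate mice, whereas the methods call them biological replicates. CPM used TMM-scaled totals. Differences were tested with edgeR 4.0.16 (R 4.3.3; filterByExpr, robust glmQLFit, glmQLFTest, no covariate), Benjamini-Hochberg over 18438 genes, threshold 0.05. DESeq2 1.42.0, limma 3.58.1 (voom), other scalings, filters, a replicate block and each library left out were alternatives. Intervals are at 95% and cover counting error only where Poisson. Exonic lengths and coordinates came from GENCODE M21 on GRCm38, whose versioned IDs matched for all 10 members.

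The named genes were all members, all carriers, Rbpj, from each pathway list the 3 genes of lowest p and at most 2 leading genes of a marker list. Paralogs are given beside their member, and further marker genes, which passed a test or make up or go against the sum of their list, were named after their values were seen, as marked in the text for Hey1 and Fut9. St3gal5 was also named after its values were seen. Members and lists were chosen with earlier results of these data known. Gfus and Fuk are other names of listed genes and had no row.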

Additional observations from a re-analysis of the deposited data

How the results depend on the processing

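Over the whole table, 209 genes passed in edgeR (106 higher, 103 lower). The count was 1436 without the low-count filter, 944 with DESeq2 (434 higher, 510 lower), 344 with a replicate block, and 21 to 700 with 1 library left out (700 without CTRL 2, 521 without RbpjΔEC 3, 54, 24, 21 and 48 without CTRL 1, CTRL 3, RbpjΔEC 1 and RbpjΔEC 2). With total counts alone as the scaling it was 241, split into 159 higher and 82 lower, and the median log2 fold change over all genes moved from 0.01 to 0.05.

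Of the members, 1 passed without the low-count filter (Chst2), and 0 to 1 with a library left out (1 without RbpjΔEC 3, Gcnt1). Of the 72 other pathway genes, 0 passed in the edgeR fit, 1 with total counts alone (Slc35a2), 11 without the filter, 10 with DESeq2, 2 with the replicate block (Cd300lg and Nfkb2), and 0 to 6 with a library left out (5 without CTRL 2, 6 without RbpjΔEC 3). No pairing by replicate number was seen: same-numbered libraries had correlations of deviations of 0.0231, 0.00916 and 0.00544. Those of other pairs ran from -0.0628 to 0.0480. With 3 libraries per group this check cannot exclude a pairing. The log2 fold change of St3gal6 turned to 0.0220 with total counts alone and ranged from -0.0585 to 0.0251 with a library left out (0.0251 without RbpjΔEC 3). That of Fut4 ranged from -0.0763 (without CTRL 2) to 0.167 (without CTRL 1), with -0.00143 without RbpjΔEC 2. With the longest transcript as length, St3gal4 moved to 25.7 and St3gal6 to 10.4 CPM per kilobase, from 18.4 and 6.94, and St3gal4 then stood above B3gnt3. The cause of these differences was not tested.

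With 3 libraries per group, permutation cannot go under 0.1, and depth limits the 4 members near 0 counts.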
